A study of Mus musculus with 18 samples.

Results

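The unfolded protein response and the integrated stress response were followed through 10 genes chosen by name: Atf4, Atf3, Ddit3, Trib3, Chac1, Asns, Hspa5, Xbp1, Dnajb9 and Herpud1. They were 10 of the 36172 genes listed in the deposited matrix, and each had its own entry under that symbol. RNAseq was performed on brain of Cx3cr1-cre/ERT2+; NuTRAP+ mice of both sexes by translating ribosome affinity purification (TRAP), in which ribosomes carrying an EGFP tag are pulled down with an anti-GFP antibody. The positive fraction held RNA of the tagged ribosomes, and the input was a sample of the same brain lysate taken before the pulldown.

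All mice, controls included, carried both alleles and received tamoxifen at about 3 months of age. Tamoxifen activates the Cre recombinase made under Cx3cr1 control, which switches on the tag in microglia and in other macrophages that express Cx3cr1. At 3 to 4 weeks after tamoxifen the mice received an intraperitoneal injection of 5 mg/kg LPS (lipopolysaccharide from Gram-negative bacteria, which activates the innate immune receptor TLR4), or of phosphate-buffered saline (PBS), and brains were taken 24 h later. There were 4 libraries each in Input PBS, Positive PBS and Input LPS and 5 in Positive LPS, each library from 1 hemisected brain, and animals are named by their numbers. Of the 9 animals 6 were female and 3 male, of which 1 received LPS and 2 PBS. The input library of LPS animal 271 held only 1252 counts and was left out.

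When the endoplasmic reticulum (ER) is loaded with more secretory protein than it can fold, PERK, IRE1 and ATF6 in its membrane start the unfolded protein response. ATF6 and the spliced form of XBP1 raise ER chaperones and the machinery that removes misfolded protein, whereas PERK phosphorylates the initiation factor eIF2. Phosphorylation of eIF2, which PKR, GCN2 and HRI also carry out, is the core of the integrated stress response: it lowers general protein synthesis and favours translation of ATF4, which drives genes of amino acid supply and of stress signalling. Part of this control acts on translation and splicing and is not visible in a gene's RNA level alone.

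The 17 libraries used held from 22968939 to 35123345 counts, and 14803 genes passed a filter of over 20 normalised counts in every library of at least 1 group. Normalised counts are estimated read counts divided by a size factor of the library. A gene was called where its adjusted p was under 0.05 and its log2 fold change, up or down, was larger in size than 0.32. All 8 microglia markers were higher in the positive fraction of both treatments, with summed levels of 182258 to 224696 normalised counts in Positive PBS, 152832 to 211764 in Positive LPS and 9536 to 13661 in input. Neuronal RNA was not depleted: the 6 neuron markers summed to 190724 to 219307 in Positive PBS and 183984 to 193327 in Input PBS. The sums of 6 astrocyte markers were 99352 to 149014 and 94235 to 104200. Gene by gene, 1 of these 6 was enriched and 2 were depleted in PBS animals (median log2 ratio -0.16). For LPS animals the numbers were 1 and 3 (median -0.32). All 6 oligodendrocyte and all 6 choroid plexus markers were depleted in both treatments, with medians of -2.39 and -1.66 in PBS animals. Of the 6 endothelial markers 5 were enriched in both treatments and 0 were depleted. Their sums were 5867 to 9074 in Positive PBS and 2140 to 3270 in Input PBS. All 5 border macrophage markers were enriched in both treatments, with sums of 4218 to 8623 in Positive PBS and 365 to 516 in Input PBS. The positive fraction was thus enriched in microglial RNA, and in RNA of border macrophage and endothelial markers too. It still held RNA of other brain cells. With LPS, 5 of 5 tested neutrophil markers rose in both fractions, from sums over 7 markers of 28.8 to 148 in Positive PBS to 321 to 968 in Positive LPS, and from 157 to 472 in Input PBS to 482 to 1372 in Input LPS. Of the 6 B and plasma cell markers, 2010001M09Rik (Mzb1) was at 0 in every library, and only 1 passed the filter. The 6 summed to 96.2 to 161 in Positive PBS and 230 to 391 in Positive LPS. In input they summed to 23.7 to 50.9 with PBS and 28.4 to 38.8 with LPS. The tested marker rose with LPS in both fractions (log2 1.35 and 1.08). Its log2 positive to input ratios were 4.12 in PBS and 4.39 in LPS animals, beside microglia marker medians of 4.22 and 4.03. Of the 8 microglia markers 2 rose and 3 fell with LPS in the positive fraction, 3 of 5 border macrophage markers fell there, and 5 of 6 oligodendrocyte markers fell in input. The part of these cells in the results that follow was not tested, and fewer cells of a type and less RNA per cell cannot be told apart in these libraries.

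The promoters of the 10 genes were searched for known response elements of the pathway, and the stretches with a match are shown with that of Dnajb9, which was called in both fractions and had none. RefSeq gives for each gene 1 window from 250 bases before to 50 bases after the transcription start (GRCm38.p6), and all 10 genes had one. The RefSeq starts lie upstream of those in the deposited file by 326 bases in Xbp1, 71 in Herpud1 and 27 in Asns, and match them in the other 7 genes. Both strands were searched for the C/EBP-ATF core TGATGNAA, bound by dimers with ATF4, the unfolded protein response element TGACGTGG, the cAMP response element TGACGTCA, the ER stress response element (CCAAT, 9 bases, CCACG) and the ER stress response element II (ATTGG, 1 base, CCACG). In the sequences shown here, 5′ to 3′ on the strand of the gene and ending at the base before the start, capitals mark the matches. Hspa5 (chr2:34771990-34772089, plus strand) held an ER stress response element, found in 0.119% of 32851 windows. Herpud1 (chr8:94386279-94386428, plus strand) held an ER stress response element II, found in 0.0365% of windows, and a C/EBP-ATF core, found in 3.97%.
Hspa5: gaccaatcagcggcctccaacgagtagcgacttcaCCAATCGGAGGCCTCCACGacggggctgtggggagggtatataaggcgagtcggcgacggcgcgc
Herpud1: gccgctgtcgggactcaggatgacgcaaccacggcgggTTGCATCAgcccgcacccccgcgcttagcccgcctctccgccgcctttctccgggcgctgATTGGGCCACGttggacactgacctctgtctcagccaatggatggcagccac
Asns (chr6:7693210-7693309, minus strand), Chac1 (chr2:119350992-119351241, plus strand) and Atf3 (chr1:191183334-191183483, minus strand) each held a C/EBP-ATF core, which in Chac1, Atf3 and Herpud1 lay on the opposite strand and reads TTGCATCA on the strand of the gene. These cores lay at bases -23 to -16 from the start in Asns, -193 to -186 in Chac1, -110 to -103 in Atf3 and -112 to -105 in Herpud1, and the elements of Hspa5 and Herpud1 at -65 to -47 and -52 to -42.
Asns: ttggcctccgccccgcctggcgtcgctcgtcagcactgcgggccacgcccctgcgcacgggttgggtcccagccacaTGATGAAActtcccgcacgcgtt
Chac1: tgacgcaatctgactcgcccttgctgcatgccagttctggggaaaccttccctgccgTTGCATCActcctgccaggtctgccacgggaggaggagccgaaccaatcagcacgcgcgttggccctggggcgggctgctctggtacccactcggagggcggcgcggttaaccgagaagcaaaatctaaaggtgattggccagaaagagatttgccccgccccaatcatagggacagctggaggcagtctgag
Atf3: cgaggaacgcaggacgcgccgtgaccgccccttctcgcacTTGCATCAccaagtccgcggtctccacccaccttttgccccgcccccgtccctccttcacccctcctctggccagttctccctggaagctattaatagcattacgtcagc
Trib3 held the same core on the opposite strand, at bases 15 to 22 after its start. Dnajb9 (chr12:44210069-44210168, minus strand) held none of the 5 patterns in its window.
Dnajb9: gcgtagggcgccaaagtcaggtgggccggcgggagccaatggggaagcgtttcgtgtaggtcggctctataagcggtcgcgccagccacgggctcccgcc
Atf4, Ddit3 and Xbp1 held none either, and no window of the 10 genes held TGACGTGG or TGACGTCA, which were found in 0.676% and 1.79% of all windows. A match is a description of these letters and not of binding, and a missing match holds only for this window.

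Of the 9 genes that could be tested, 8 passed the filter in all 4 groups and Trib3 in 3. Xbp1 (gene 22433, chr11:5520967-5525872, mm10), the transcription factor whose mRNA is spliced by IRE1, was listed at 0 in every library. So were 2697 of the 22013 protein-coding entries of the matrix. Whether the 0 of Xbp1 reflects absent RNA or a failed estimate in the deposited counts was not tested. No level or fold change is therefore given for it.

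In the positive fraction LPS raised 3 genes of ER protein folding and degradation, Herpud1, Hspa5 and Dnajb9, and lowered Chac1, a gene of the ATF4 arm. Thus 3 of 9 genes were called higher against 19.0% of all genes tested, and 1 of 9 lower against 14.9%. The median log2 fold change of the 9 genes was 0.08, beside 0.01 over all genes tested. Atf4, Atf3, Ddit3, Trib3 and Asns were not called.

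Herpud1 (gene 64209, chr8:94386500-94395358) encodes an ER membrane protein with a ubiquitin-like domain that takes part in ER-associated degradation of misfolded protein. Its normalised counts in Positive PBS were 2834, 2791, 2797 and 2678 in animals 268, 272, 273 and 506, and in Positive LPS 5173, 5284, 4490, 4708 and 5449 in animals 266, 267, 270, 271 and 507. All 5 LPS libraries lay above all 4 PBS libraries, with a narrow spread in the PBS group. The mean rose from 2775 ± 67.5 (SD, n = 4) to 5021 ± 405 (SD, n = 5), a 1.81-fold rise (log2 fold change 0.86 ± 0.09 SE, adjusted p = 4.55e-07).

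Hspa5 (gene 14828, chr2:34772090-34776529) encodes BiP, the ER-resident Hsp70 chaperone that binds unfolded protein and holds the stress sensors inactive. Its normalised counts were 13845, 14566, 13068 and 14581 in Positive PBS animals 268, 272, 273 and 506. In Positive LPS they were 23741, 25530 and 25418 in animals 266, 267 and 507, but 12944 in animal 270 and 13793 in animal 271. The LPS libraries of animals 270 and 271 lay within or below the range of the PBS libraries, so the groups overlapped. The mean was 14015 ± 719 in Positive PBS (SD, n = 4) and 20285 ± 6361 in Positive LPS (SD, n = 5), a 1.45-fold rise (log2 fold change 0.53 ± 0.17 SE, adjusted p = 0.0167). This test used an estimate of spread shared with the input groups, whose SD was 927 with PBS and 208 with LPS. The call was lost without animals 506 and 507, which are numbered apart from the others (log2 0.46, adjusted p = 0.102), and in the 6 female animals alone (log2 0.42, adjusted p = 0.243), an alternative chosen after seeing the data, and it was lost with the log2 values that the authors deposited (log2 0.52, adjusted p = 0.0535 by limma over 17 libraries).

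Dnajb9 (gene 27362, chr12:44205897-44210068) encodes ERdj4, a BiP co-chaperone and a target of spliced XBP1. Its normalised counts were 1352, 1127, 1303 and 1485 in Positive PBS animals 268, 272, 273 and 506 and 1639, 1721, 1808, 1755 and 1779 in Positive LPS animals 266, 267, 270, 271 and 507. The groups did not overlap, and animals 270 and 271, low in Hspa5, were among the upper 3 of the LPS group here. Dnajb9 rose 1.32-fold, from 1317 ± 148 (SD, n = 4) to 1740 ± 64.8 (SD, n = 5), or 0.40 ± 0.07 SE on the log2 scale (adjusted p = 0.000315). In female animals alone the log2 fold change was 0.30 (adjusted p = 0.036), which is under the fold threshold.

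**Figure D1:**
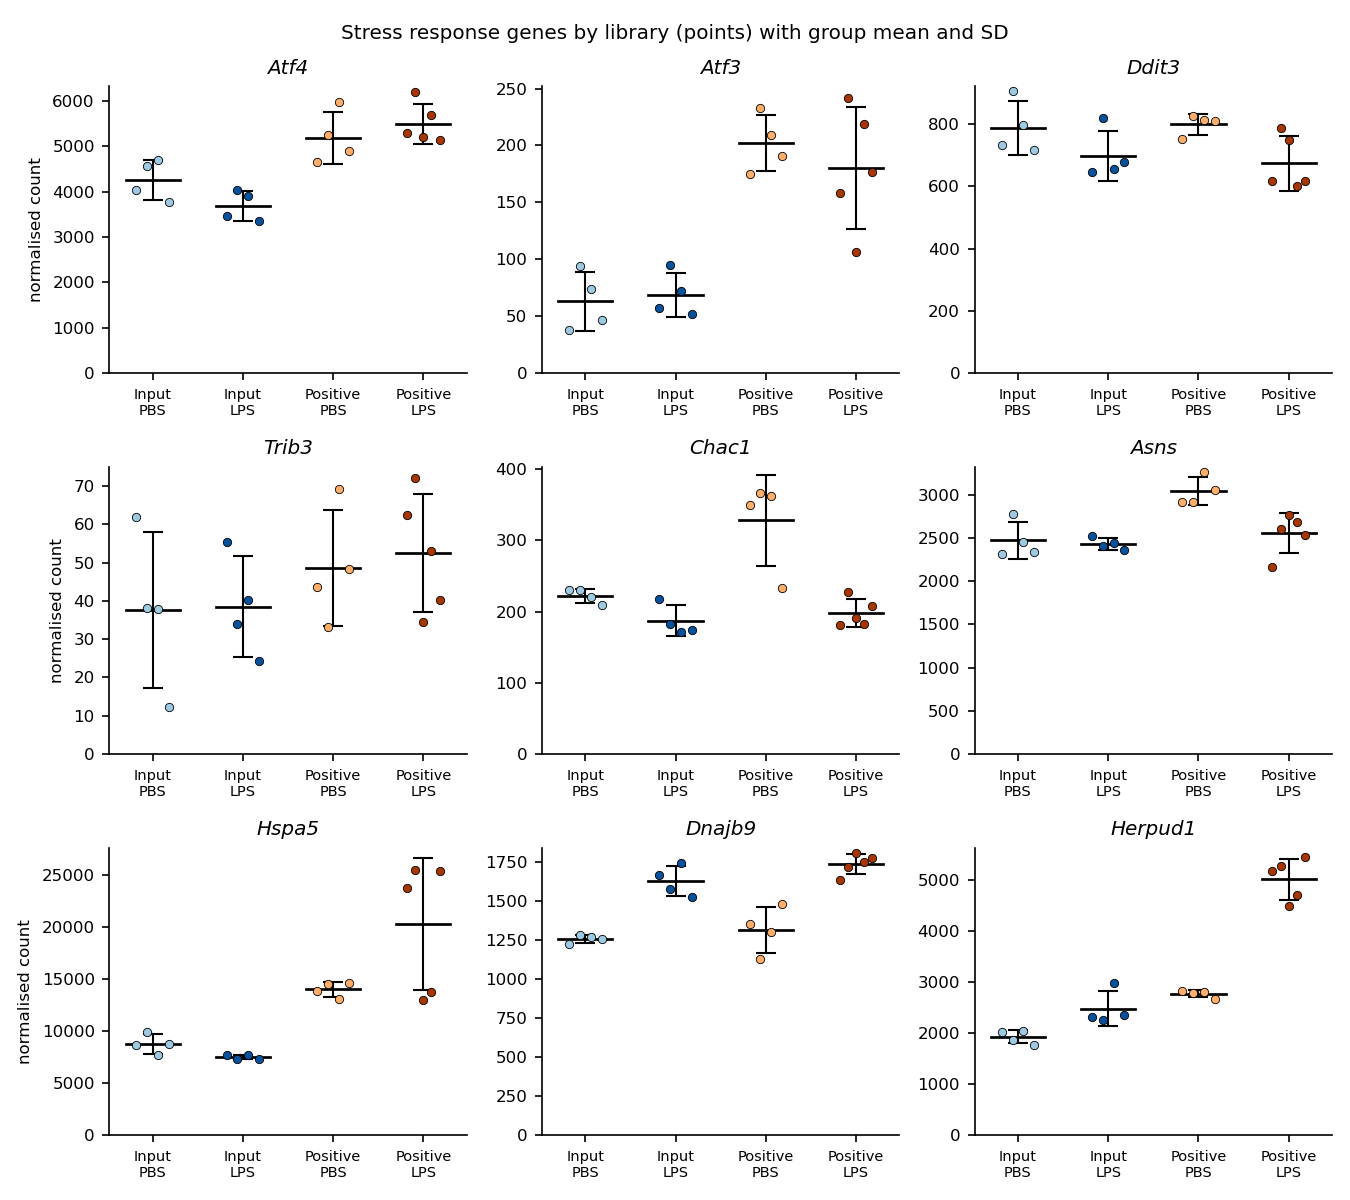
Normalised counts (vertical axis, from 0) of the 9 detected genes in the 4 groups of fraction and treatment, with 1 point per library and the group mean ± SD. Herpud1 and Dnajb9 lay higher in all LPS libraries than in the PBS libraries of the same fraction, Chac1 lay lower in Positive LPS than in Positive PBS, and Hspa5 split the Positive LPS libraries into 3 high and 2 low values.

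Of the 6 members of the ATF4 arm, Atf4, Atf3, Ddit3, Trib3, Chac1 and Asns, Chac1 was called for LPS in the positive fraction. Chac1 (gene 69065, chr2:119351242-119354327) encodes a gamma-glutamylcyclotransferase that degrades glutathione and is a target of the ATF4 pathway. Its normalised counts were 350, 366, 363 and 233 in Positive PBS animals 268, 272, 273 and 506 and 181, 227, 191, 182 and 208 in Positive LPS animals 266, 267, 270, 271 and 507. The PBS library of animal 506 stood apart from the other 3 and lay just above the highest LPS library, and the groups did not overlap. Chac1 fell 1.66-fold (log2 fold change -0.73 ± 0.14 SE, adjusted p = 0.000319), from a mean of 328 ± 63.8 (SD, n = 4) to 198 ± 19.4 (SD, n = 5).

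Asns (gene 27053, chr6:7675171-7693182) encodes asparagine synthetase, a classical ATF4 target. Its normalised counts were 2920, 2924, 3269 and 3062 in Positive PBS animals 268, 272, 273 and 506 and 2171, 2608, 2771, 2690 and 2542 in Positive LPS animals 266, 267, 270, 271 and 507. The groups did not overlap and the LPS libraries were the lower ones. At -0.25 ± 0.08 SE on the log2 scale (adjusted p = 0.0126) Asns passed the p threshold but not the fold threshold.

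Atf4 (gene 11911, chr15:80255184-80257541) itself encodes the transcription factor whose translation the pathway controls. Its normalised counts were 4652, 5257, 5970 and 4905 in Positive PBS animals 268, 272, 273 and 506 and 5289, 6191, 5201, 5687 and 5137 in Positive LPS animals 266, 267, 270, 271 and 507, and the groups overlapped. The log2 fold change was 0.08 ± 0.09 SE (adjusted p = 0.496). Ddit3 (gene 13198, chr10:127290793-127296288), which encodes CHOP, a transcription factor of prolonged ER stress, lay between 751 and 825 in Positive PBS and between 603 and 789 in Positive LPS (log2 fold change -0.25 ± 0.11 SE, adjusted p = 0.0738). Ddit3 overlaps Mars, which lies on the other strand, and the alignment was stated to use strand.

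Atf3 (gene 11910, chr1:191170297-191183333), a stress-inducible repressor and activator of the same bZIP class, had normalised counts of 175, 233, 209 and 191 in Positive PBS and of 158, 242, 106, 219 and 177 in Positive LPS, in the animal order given for Atf4. The LPS group enclosed the whole PBS range, and the log2 fold change was -0.16 ± 0.26 SE (adjusted p = 0.641). Trib3 (gene 228775, chr2:152337425-152344060), a pseudokinase induced by ATF4 and CHOP, was the least abundant of the genes, with 33.3 to 69.2 in Positive PBS and 34.5 to 72 in Positive LPS (log2 fold change 0.12 ± 0.36 SE, adjusted p = 0.817). Its standard error was the widest of the 9 genes, so that only large changes were detectable at these counts.

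In the input, Herpud1 and Dnajb9 were the members that LPS raised. They were 2 of 9 genes, against 7.16% of all genes tested, and 0 of 9 genes were called lower, against 5.26%. At an unadjusted p under 0.05 in edgeR, 1 of 9 was lower, and DESeq2 called 2 of the 9 genes as well. The median log2 fold change was -0.02 over the 9 genes and 0.00 over all genes tested.

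Dnajb9 had 1223, 1281, 1271 and 1255 normalised counts in Input PBS animals 268, 272, 273 and 506 and 1670, 1579, 1746 and 1525 in Input LPS animals 266, 267, 270 and 507. The PBS libraries lay close together and all LPS libraries lay above them. Dnajb9 rose 1.3-fold in input (log2 fold change 0.37 ± 0.08 SE, adjusted p = 0.00281), and its effects in the fractions differed by a log2 value of 0.03 ± 0.11 SE (adjusted p = 0.927).

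Herpud1 had 2014, 1864, 2046 and 1774 normalised counts in Input PBS animals 268, 272, 273 and 506 and 2320, 2248, 2988 and 2347 in Input LPS animals 266, 267, 270 and 507. The groups did not overlap, and the library of animal 270 stood above the other 3 LPS libraries. Herpud1 rose 1.29-fold in input (log2 fold change 0.36 ± 0.09 SE, adjusted p = 0.00972). Without the library of animal 270 the log2 fold change was 0.26 and under the fold threshold (adjusted p = 0.0376), and the call was lost without animals 506 and 507 (log2 0.35, adjusted p = 0.0695) and in female animals alone (log2 0.43, adjusted p = 0.104).

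Hspa5 was not called in input. Its normalised counts were 8701, 9922, 7655 and 8768 in Input PBS animals 268, 272, 273 and 506 and 7655, 7266, 7674 and 7354 in Input LPS animals 266, 267, 270 and 507. The input libraries of animals 266, 267 and 507, whose positive libraries were the highest, lay at or below the PBS range. The log2 fold change was -0.23 ± 0.18 SE (adjusted p = 0.432).

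Atf4 and Chac1 had input log2 fold changes of -0.21 ± 0.10 SE (adjusted p = 0.167) and -0.25 ± 0.14 SE (adjusted p = 0.262). The log2 fold change of Ddit3 was -0.17 ± 0.11 SE (adjusted p = 0.334) and that of Asns -0.02 ± 0.08 SE (adjusted p = 0.89). Atf3 and Trib3, with 37.4 to 94.7 and 12.4 to 62 normalised counts across all input libraries, had log2 fold changes of 0.13 ± 0.29 SE (adjusted p = 0.81) and 0.03 ± 0.38 SE (adjusted p = 0.97).

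**Figure D2:**
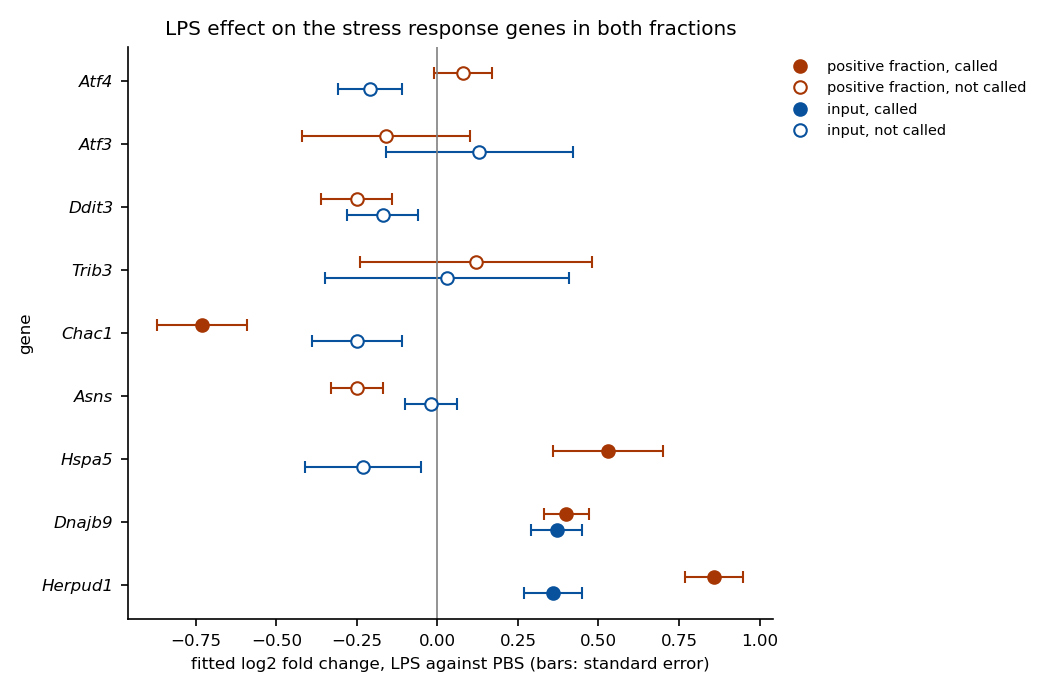
Log2 fold change of LPS against PBS (± SE) of the 9 detected genes in the positive fraction and in input, with filled symbols for called genes. Herpud1 lay at 0.86 and 0.36, Dnajb9 at 0.40 and 0.37, Hspa5 at 0.53 and -0.23 and Chac1 at -0.73 and -0.25.

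Whether LPS acted differently in the fractions was tested as an interaction. Herpud1 was called, with an LPS effect larger in the positive fraction by 0.49 ± 0.12 SE on the log2 scale (adjusted p = 0.0193). This was 1 of 9 genes called higher, against 5.46% of all genes tested, and 0 of 9 were called lower, against 1.42% (1 at an unadjusted p under 0.05), with a median difference of 0.03 over the 9 genes and of -0.02 over all genes. The call of Herpud1 was lost without animals 506 and 507 (log2 0.45, adjusted p = 0.155), in female animals alone (log2 0.42, adjusted p = 0.434) and without the Input LPS library of animal 507 (log2 0.46, adjusted p = 0.0507). Hspa5 had a larger estimate with a wider error, a log2 difference of 0.76 ± 0.24 SE (adjusted p = 0.0696). It was called with the animal as a replicate block (log2 0.75, adjusted p = 0.015 in limma-voom, and 0.82, adjusted p = 0.0103 in edgeR), with DESeq2 (log2 0.76, adjusted p = 0.0252), and with the Positive LPS library of animal 270 left out (log2 0.89, adjusted p = 0.00773) or that of animal 271 (log2 0.88, adjusted p = 0.0197). Chac1 had a log2 difference of -0.48 ± 0.20 SE (adjusted p = 0.176), and was called without the Positive PBS library of animal 506 (log2 -0.61, adjusted p = 0.0387).

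The fractions were then compared within treatment, which asks whether transcripts of these genes were enriched on tagged ribosomes. In PBS animals Atf3, Hspa5, Chac1 and Herpud1 were higher in the positive fraction, 4 of 9 genes against 21.0% of all genes tested, and 0 of 9 were lower, against 18.8%, also at an unadjusted p under 0.05. In LPS animals Hspa5, Atf3, Herpud1 and Atf4 were higher, 4 of 9 against 27.6%, and 0 of 9 lower, against 25.8%, also at an unadjusted p under 0.05. DESeq2 called 4 of the 9 genes in each treatment. The median log2 ratio was 0.36 in PBS and 0.44 in LPS animals, beside -0.00 and -0.03 over all genes. The balance over all genes depended on scaling: 3113 calls were higher and 2785 lower in PBS animals, against 2269 and 3829 with size factors from all 18 libraries, and 4091 and 3817 in LPS animals against 3467 and 4692.

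Atf3 was the most enriched gene in PBS animals, at 3.22-fold (log2 fold change 1.69 ± 0.29 SE, adjusted p = 0.000116). The positive library of each PBS animal held 4.69, 2.48, 2.82 and 4.14 times the input level in animals 268, 272, 273 and 506. In LPS animals 266, 267, 270 and 507 the ratios were 2.78, 2.56, 1.46 and 3.43, all above 1, and the log2 fold change was 1.39 ± 0.27 SE (adjusted p = 0.000283).

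Hspa5 was enriched evenly in PBS animals and unevenly after LPS. Its positive to input ratios were 1.59, 1.47, 1.71 and 1.66 in PBS animals 268, 272, 273 and 506. In LPS animals they were 3.1, 3.51 and 3.46 in animals 266, 267 and 507, and 1.69 in animal 270, which lay within the PBS range. The log2 ratio was 0.68 ± 0.18 SE in PBS (adjusted p = 0.00426) and 1.44 ± 0.17 SE in LPS animals (adjusted p = 1.22e-06), and in female PBS animals alone the call was lost (log2 0.70, adjusted p = 0.0843).

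Herpud1 had ratios of 1.41, 1.5, 1.37 and 1.51 in PBS animals 268, 272, 273 and 506 and of 2.23, 2.35, 1.5 and 2.32 in LPS animals 266, 267, 270 and 507. Animal 270 was again the lowest of the LPS animals and within the PBS range. The log2 ratios were 0.53 ± 0.09 SE in PBS animals (adjusted p = 0.000104) and 1.02 ± 0.09 SE in LPS animals (adjusted p = 1.25e-08).

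Atf4 passed the p threshold but not the fold threshold in PBS animals (log2 0.28 ± 0.10 SE, adjusted p = 0.0225) and was called in LPS animals, 1.49-fold higher on tagged ribosomes (log2 0.58 ± 0.09 SE, adjusted p = 3.66e-05). Its ratios were 1.15, 1.15, 1.27 and 1.3 in PBS animals 268, 272, 273 and 506 and 1.53, 1.53, 1.33 and 1.53 in LPS animals 266, 267, 270 and 507, without overlap. The difference between treatments was not called (log2 0.29 ± 0.13 SE, adjusted p = 0.233). Without the Positive PBS library of animal 268 or the Input PBS library of animal 273 Atf4 was called in PBS animals too (log2 0.34 in each).

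Chac1 was enriched in PBS animals. Its ratios were 1.52, 1.59, 1.65 and 1.11 in PBS animals 268, 272, 273 and 506 and 0.832, 1.24, 1.12 and 1.19 in LPS animals 266, 267, 270 and 507, and these ranges overlapped through animal 506. Chac1 was called in PBS animals (log2 0.56 ± 0.14 SE, adjusted p = 0.00366), though not in female animals alone (log2 0.41, adjusted p = 0.193), and was at 0.08 ± 0.14 SE on the log2 scale in LPS animals (adjusted p = 0.612). Asns had log2 ratios of 0.30 ± 0.08 SE in PBS animals (adjusted p = 0.00505), under the fold threshold, and 0.07 ± 0.08 SE in LPS animals (adjusted p = 0.443). It was called in female PBS animals alone and without the Input PBS library of animal 272 (log2 0.36 in each).

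Ddit3, Dnajb9 and Trib3 were called in neither treatment. The ratios of Ddit3 lay between 0.906 and 1.14 and those of Dnajb9 between 0.88 and 1.18 over all 8 animals, whereas those of Trib3, at low counts, spread from 0.702 to 3.91. Dnajb9 therefore rose with LPS in both fractions with positive and input libraries at about the same level.

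**Figure D3:**
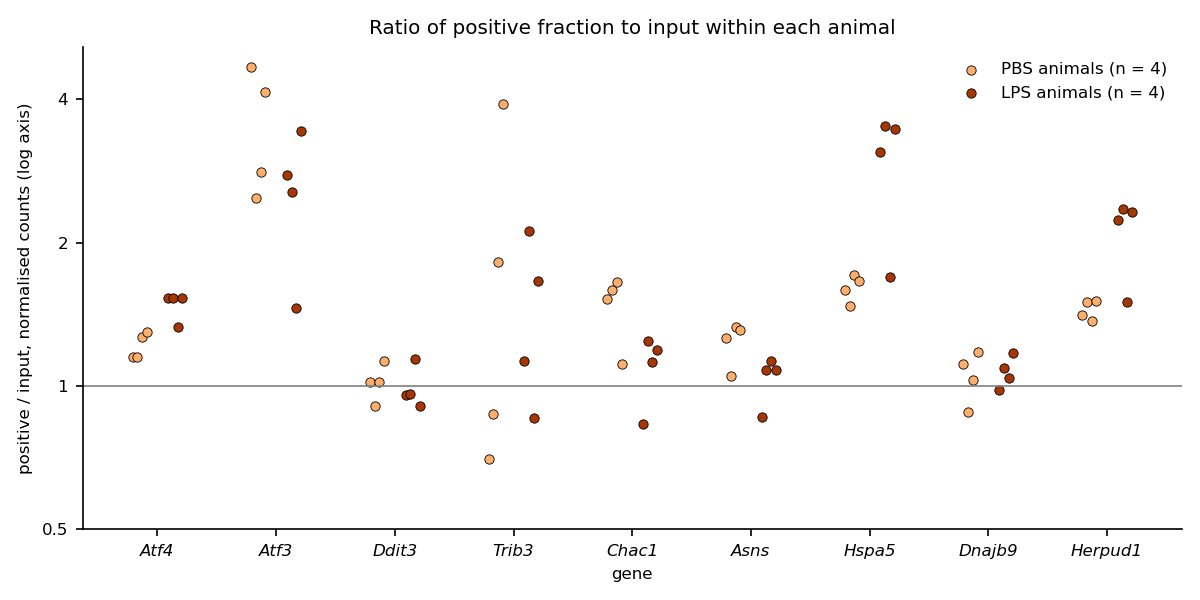
Ratio of positive to input normalised counts in each animal (log axis) of the 9 detected genes, for 4 PBS and 4 LPS animals. Hspa5 reached 3.1 to 3.51 in 3 LPS animals and 1.69 in animal 270, Atf3 lay above 1 in all 8 animals, and Ddit3 and Dnajb9 lay around 1.

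Levels were compared between genes per kilobase of exon. In Positive PBS, Hspa5 (3733 normalised counts per kilobase) and Atf4 (3012) were the most abundant, followed by Herpud1 (1422) and Asns (1408), which did not differ beyond their spread (SD 34.6 and 76, n = 4). Ddit3 (899), Dnajb9 (535) and Chac1 (200) came next, with Atf3 (93.8) and Trib3 (24) at the lower end. In Positive LPS the order was the same, with Hspa5 at 5404 ± 1694 (SD, n = 5), Atf4 at 3189 and Herpud1 at 2572, now above Asns at 1182, while Ddit3 (758 ± 98.3) and Dnajb9 (707 ± 26.3) did not differ beyond their spread. In Input PBS, Atf4 (2473 ± 257) and Hspa5 (2334 ± 247) led without a difference beyond their spread (SD, n = 4), and Asns (1144) stood above Herpud1 (986).

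The rest of the pathway was read from 9 lists of 157 genes in all, of which 153 were tested. In the positive fraction the share called higher was 69.2% for the eIF2 list, 46.7% for the ATF4 and CHOP stress targets, 45.8% for the ER chaperones and for ER translocation, 38.9% for ER-associated degradation, 27.6% for the ATF4 targets of amino acid supply, 22.2% for the sensors and 14.3% for cytosolic heat shock, beside 19.0% of all genes tested. The share called lower was 28.6% for heat shock, 13.3% for the stress targets and 10.3% for amino acid supply, beside 14.9%, so the shares of the amino acid and sensor lists lay near those of all genes. In input 7.16% of all genes were called higher and 5.26% lower. The genes of the eIF2 list, which holds the eIF2 kinases, the exchange factor eIF2B and the phosphatase that reverses eIF2 phosphorylation, rose in 9 of 13 cases in the positive fraction and fell in 0 (median log2 fold change 0.48), against 1 and 0 in input (median 0.19). Eif2ak2, which encodes the double-stranded RNA-activated kinase PKR and is an interferon-stimulated gene, rose by 1.19 ± 0.11 SE in the positive fraction (log2 scale, adjusted p = 2.95e-07) and by 1.15 ± 0.12 SE on the log2 scale in input (adjusted p = 3.18e-06). Ppp1r15b, which encodes the constitutive regulatory subunit of the eIF2 phosphatase, rose by 0.74 ± 0.07 SE in the positive fraction (log2 scale, adjusted p = 4.84e-07). Of 9 tested genes of the sensors and their processing, 2 rose in the positive fraction and 0 fell (median 0.14), and 0 were called in input (median 0.09), where 2 were higher and 1 lower at an unadjusted p under 0.05 and DESeq2, the replicate block in limma-voom and the fits without Positive LPS animal 270 or 507 called 1. In female animals alone 1 was called in the positive fraction. The genes that rose were Atf6 (log2 0.42 ± 0.09 SE, adjusted p = 0.00141), which encodes the sensor cleaved in the Golgi, and Creb3 (log2 0.36 ± 0.08 SE, adjusted p = 0.00182), which encodes a related membrane-bound factor.

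Of the ATF4 target genes of amino acid supply, 8 of 29 were higher and 3 lower in the positive fraction (median 0.12) and 1 higher and 2 lower in input (median -0.03). Slc7a11, the cystine transporter subunit, rose from 834 ± 182 (SD, n = 4) to 1996 ± 1172 (SD, n = 5), 1.26 ± 0.29 SE on the log2 scale (adjusted p = 0.00203). Mthfd2, a mitochondrial folate enzyme, rose by 1.07 ± 0.24 SE on the log2 scale (adjusted p = 0.00149), with groups that overlapped. Slc6a9, a glycine transporter, fell in the positive fraction (log2 -1.01 ± 0.13 SE, adjusted p = 7.1e-06) and in input (log2 -0.81 ± 0.14 SE, adjusted p = 0.000397). Phgdh, the first enzyme of serine synthesis, fell in input (log2 -0.81 ± 0.15 SE, adjusted p = 0.00102), and its LPS effect was higher in the positive fraction by 1.44 on the log2 scale (adjusted p = 0.000321). In female animals alone 4 genes of this list were called in the positive fraction and only 1 in input. In input 5 were called with the replicate block in limma-voom or without Positive LPS animal 271.

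Of 15 tested stress targets of ATF4 and CHOP, 7 rose and 2 fell in the positive fraction (median 0.51), and 6 rose and 0 fell in input (median 0.46). Cdkn1a, which encodes the cell cycle inhibitor p21 and is also a p53 target, rose by 1.62 ± 0.25 SE in the positive fraction (log2 scale, adjusted p = 5.88e-05) and by 1.82 ± 0.26 SE on the log2 scale in input (adjusted p = 9.86e-05). Cebpb, a transcription factor of inflammatory macrophages, rose by 1.59 ± 0.17 SE on the log2 scale (adjusted p = 7.88e-07) and by 0.76 ± 0.18 SE on the log2 scale (adjusted p = 0.00681). Its partner Cebpg fell in the positive fraction (log2 -0.54 ± 0.16 SE, adjusted p = 0.0131), as did the lipoprotein receptor Vldlr (log2 -0.47 ± 0.09 SE, adjusted p = 0.00056). The count in input was 3 without Input PBS animal 268, or without animals 506 and 507, and 2 in female animals alone, where 4 were called in the positive fraction.

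The ER chaperones and folding enzymes rose in 11 of 24 cases and fell in 0 in the positive fraction (median 0.37), and rose in 0 and fell in 2 in input (median -0.09), where 2 were higher at an unadjusted p under 0.05 and DESeq2 called 2 in all. The falls in input were not stable to single libraries: 0 were called without Input LPS animal 266, 1 without Input LPS animal 267, 270 or 507 or Input PBS animal 272 or 506, and 0 without both of 506 and 507 or in female animals alone. For 8 of 24 genes (33.3%, beside 5.46% of all genes tested) the response to LPS was called higher in the positive fraction than in input (median 0.50). That count was 5 without the Positive PBS library of animal 272, 3 without animals 506 and 507, 0 in female animals alone and 16 with the animal as a replicate block in edgeR, and the 11 genes became 6 in female animals alone. P4hb, a protein disulfide isomerase, rose from 5560 ± 445 (SD, n = 4) to 11742 ± 1389 (SD, n = 5), 1.08 ± 0.09 SE on the log2 scale (adjusted p = 3.16e-08), with no overlap. Sdf2l1, a partner of the BiP chaperone cycle, rose by 1.46 ± 0.39 SE on the log2 scale (adjusted p = 0.00571) with groups that overlapped. In input Calr, the lectin chaperone calreticulin, fell by 0.54 on the log2 scale (adjusted p = 0.0291) and Fkbp2, an ER prolyl isomerase, by 0.43 (adjusted p = 0.0186).

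Of 18 tested genes of ER-associated degradation, 7 rose and 0 fell in the positive fraction (median 0.20), against 1 and 0 in input (median 0.09), which was 0 without Input PBS animal 268, 273 or 506 or Input LPS animal 270. Edem1, which hands misfolded glycoproteins to degradation, rose by 0.83 ± 0.08 SE on the log2 scale (adjusted p = 2.95e-07), and Derl2, a component of the retrotranslocation channel, by 0.60 ± 0.11 SE on the log2 scale (adjusted p = 0.000346). Of 24 genes of ER translocation and signal peptide cleavage, 11 rose and 0 fell in the positive fraction (median 0.27), and 1 rose and 1 fell in input (median 0.05), of which 1 was called without Input LPS animal 266, 267, 270 or 507 or Input PBS animal 272 or 273. Ssr4, a subunit of the translocon-associated complex, rose 2.39-fold (adjusted p = 2.26e-08), and Sec61b, a subunit of the translocon, by 0.93 ± 0.15 SE on the log2 scale (adjusted p = 9.79e-05). The translocation list was called higher for the difference in 7 genes (29.2%, beside 5.46% of all genes tested). It was called in 3 without animals 506 and 507 and in 1 in female animals alone.

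Protein-folding genes outside the ER were counted for comparison. Of 14 cytosolic heat shock genes 2 rose and 4 fell in the positive fraction (median -0.14), and 1 rose and 2 fell in input (median -0.12). Hspb1, a small heat shock protein, rose by 1.20 ± 0.13 SE in the positive fraction (log2 scale, adjusted p = 1.23e-06) and by 2.02 ± 0.14 SE on the log2 scale in input (adjusted p = 3.2e-08), whereas the Hsp110 gene Hsph1 fell in both (log2 fold change -0.84 ± 0.10 SE, adjusted p = 2.04e-06, and -0.65 ± 0.10 SE, adjusted p = 0.000225). Of 10 mitochondrial chaperones and proteases, 0 were called in either fraction by edgeR or by DESeq2 (medians 0.21 and -0.03), with 6 higher at an unadjusted p under 0.05 in the positive fraction and 3 in input. Without Positive LPS animal 266, 2 were called in the positive fraction, and 1 without animal 267 or 507.

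**Figure D4:**
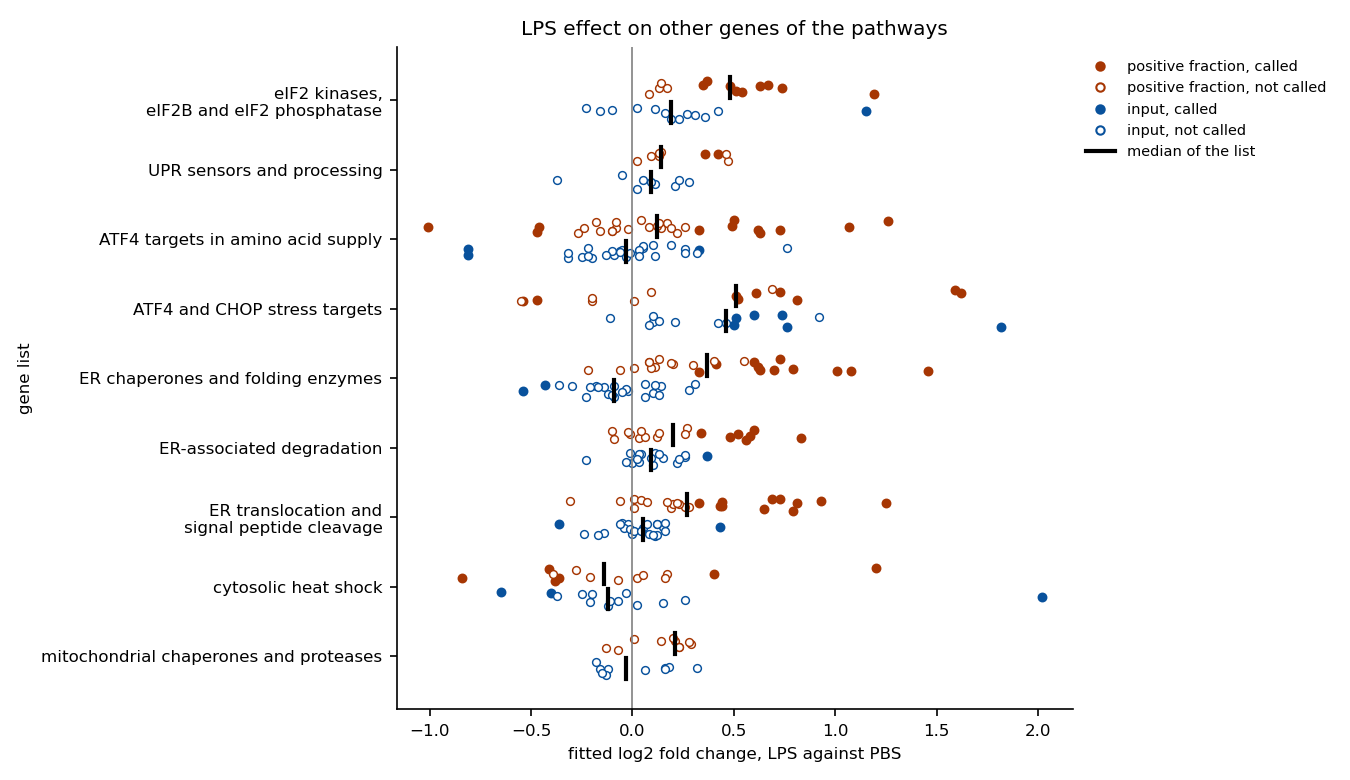
Log2 fold change of LPS against PBS of each tested gene of the 9 lists, in the positive fraction and in input, with a bar at the median of each list. The chaperone list had medians of 0.37 and -0.09 and the eIF2 list of 0.48 and 0.19, whereas the ATF4 and CHOP stress targets had 0.51 and 0.46.

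In the comparison of fractions, the chaperone list was higher in the positive fraction for 13 of 24 genes in PBS animals (median log2 ratio 0.43) and for 19 in LPS animals (median 0.94), with 0 and 1 lower, beside 21.0% and 27.6% of all genes higher. In female PBS animals alone 8 were called. The translocation list was higher for 9 and 17 of 24 genes (medians 0.29 and 0.56) and lower for 1 and 1. Edem1 had the largest enrichment in its list, with log2 ratios of 1.77 ± 0.09 SE in PBS (adjusted p = 1.08e-11) and 2.34 ± 0.09 SE in LPS animals (adjusted p = 2.16e-13). Cebpb had log2 ratios of 1.94 ± 0.18 SE in PBS (adjusted p = 6.62e-08) and of 2.77 ± 0.18 SE in LPS animals (adjusted p = 2.63e-10). The amino acid list had medians of 0.41 and 0.37, with 16 and 18 of 29 genes higher and 3 and 2 lower, though in PBS animals 9 were called in all with size factors from all 18 libraries.

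The split of Hspa5 among the Positive LPS animals was shared by other ER chaperones. In Positive LPS animals 266, 267, 270, 271 and 507, Sdf2l1 had 4032, 4959, 1071, 1213 and 5114 normalised counts, against 1049 to 1304 in Positive PBS. Manf, a secreted ER stress-inducible factor, had 5108, 5297, 2357, 2620 and 5157, against 1905 to 2205. For Sdf2l1 animals 270 and 271 lay within the PBS range, and for Manf they lay above it but closer to it than to the other 3 LPS animals. The median log2 ratio of the 24 chaperone genes to the Positive PBS mean was 0.44, 0.61 and 0.66 in animals 266, 267 and 507, and -0.00 and 0.00 in animals 270 and 271. Animal 270 was among the lowest 2 of 5 in 21 of the 24 genes, and animal 271 in 20. The split was not complete in every chaperone: for P4hb all Positive LPS libraries, these animals included, lay above the Positive PBS libraries.

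This order was not seen for most other lists of the pathway. The sensor list had medians of 0.24, 0.30, 0.22, 0.12 and 0.34 in animals 266, 267, 270, 271 and 507. Animals 270 and 271 had the lowest medians, though animals 266 and 270 lay close together. By gene the order was weak: they were among the lowest 2 in 4 and 5 of 9 genes, against 3 for each other animal. The eIF2 list had medians of 0.31, 0.41, 0.26, 0.72 and 0.35 in the same animals, with animal 271 the highest. The degradation list had 0.04, 0.19, 0.25, 0.28 and 0.22, and the translocation list 0.22, 0.37, 0.25, 0.31 and 0.32. Herpud1 lay well above the PBS range in animals 270 and 271, at 4490 and 4708, though these were its lowest values in the group. Neutrophil marker sums in the same animals were 968, 658, 321, 792 and 598, with animal 270 the lowest and animal 271 the second highest. The 5 monocyte markers summed to 284, 344, 190, 153 and 291 and the 5 border macrophage markers to 4354, 4273, 3541, 3073 and 5331, both lowest in animals 270 and 271. Of the 4 monocyte markers tested, 1 rose and 1 fell with LPS in the positive fraction. The 6 neuron markers summed to 145872, 169965, 197902, 186905 and 166451, highest in these animals. The 8 microglia markers summed to 152832, 211764, 177155, 171388 and 210360, with animal 266 the lowest. Sums of astrocyte, oligodendrocyte, endothelial, choroid plexus and B and plasma cell markers did not place animals 270 and 271 together at an end. Choroid plexus sums, for instance, were highest in animal 270 (9048) and lowest in animal 271 (4712). Animals 270 and 271 were not compared as a group with the others, since they were noticed by these values, and the part of these cell types in the split was not tested.

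**Figure D5:**
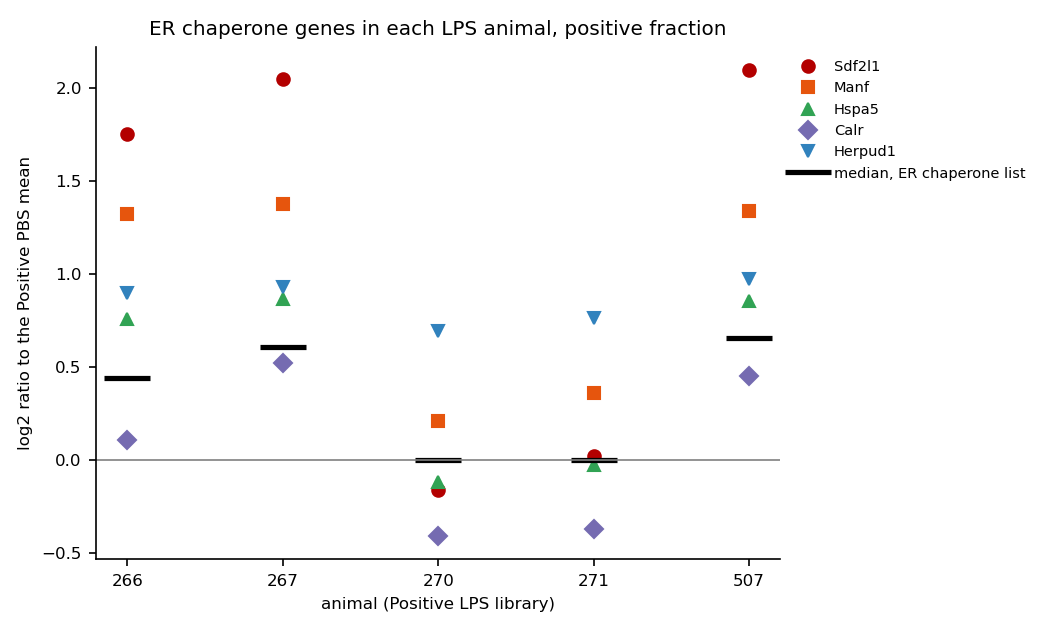
Log2 ratio to the Positive PBS mean in each Positive LPS animal for Sdf2l1, Manf, Hspa5, Calr and Herpud1 and for the median of the 24 ER chaperone genes. Animals 270 and 271 lie near 0 for the chaperone median (-0.00 and 0.00), against 0.44 to 0.66 in the other 3, while Herpud1 lies above 0 in all 5.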

How the data were processed

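RNAseq libraries of 17 TRAP fractions were compared. The authors prepared stranded libraries, trimmed the reads, aligned them to mm10 with strand in Strand NGS and deposited estimated counts per RefSeq gene, of which 81.8% of the nonzero values were not whole, so that reads shared by similar or overlapping genes may be split between them. The authors also deposited log2 values, scaled over all 18 libraries and centred on the median of Input PBS, and the submitters' processing notes name DESeq. The input of animal 271, with a total of 1252 counts, was not used. The other libraries held 22968939 to 35123345 counts, and their depth limits the precision of genes such as Trib3 and Atf3.

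Estimated counts were rounded, and size factors (medians of ratios over 15766 genes) ran from 0.766 to 1.32. The 14803 genes above 20 normalised counts in all libraries of any group were fitted in edgeR 4.0.16 (R 4.3.3) by quasi-likelihood, with a mean for each group (13 residual degrees of freedom). Adjusted p-values are Benjamini-Hochberg values of this test over all genes fitted, unless another tool is named, and calls required an adjusted p under 0.05 and a log2 fold change over 0.32 in size. The filter, threshold and fold are those of the study, which used analysis of variance. The comparisons numbered 5. On simulated data only the edgeR test of LPS in the positive fraction was tried. Its counts were drawn independently for each library, so the pairing of libraries was not covered.

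The input and positive libraries of 1 animal share a number in the labels and come from the same brain, so they are paired. Their deviations from the group means correlated at 0.16 to 0.519 in the 8 pairs. Alternatives were DESeq2 1.42.0, limma 3.58.1, a replicate block, sex as a covariate, other scalings and filters, and leaving out libraries. Those of female animals alone and of the deposited log2 values of 17 libraries were chosen after seeing the data. Members, lists and alternatives were chosen with earlier results of these data known. Genes named are the 10 members and, of each list and comparison, up to 2 called genes with the largest rise and up to 2 with the largest fall, where their mean was 100 normalised counts or more. Manf and Sdf2l1 were also described by animal after their values were seen. Kilobases of exon were taken from GENCODE vM21 and promoters from RefSeq (GRCm38.p6). For LPS within a fraction, each library came from another animal. The p-values there do not measure the spread of those animals alone. The estimate of spread was shared by the groups of both fractions and counted paired libraries as independent. The main fit had no term for the animal. For the fractions and the difference it therefore treated the paired libraries as independent.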

Additional observations from a re-analysis of the deposited data

Results flagged for a closer look

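Chac1 in the Positive PBS library of animal 506 had 233 normalised counts, far below the 350 to 366 of the other 3 libraries of its group and just above the highest Positive LPS library, at 227. Herpud1 in the Input LPS library of animal 270 had 2988 normalised counts, against 2248 to 2347 in the other 3. Libraries were looked for that stood apart in this way in 36 groups of 4 or 5 libraries, 2 were found, and chance marks about 1 in 20 groups. The LPS effect on Herpud1 differed between the fractions by a test of the difference itself, with a log2 fold change 0.49 higher in the positive fraction (adjusted p = 0.0193, edgeR).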

How the results depend on the processing

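Of 1242 values of the members under alternatives, 1161 kept their direction and their side of the threshold. With the direction kept, 25 lost a call and 10 gained one. The other 46 turned sign, most of them values near 0, and were not counted among the lost calls. Among them were Dnajb9 and Herpud1 in input, which also lost their calls with the deposited log2 values of all 18 libraries. With the deposited log2 values of all 18 libraries (limma), whose scaling includes the near-empty library, 0 members were called in any comparison. Over all genes, 62 were then called for LPS in the positive fraction, 0 in input, 124 and 576 for the fractions in PBS and LPS animals and 0 for the difference. The median over all genes moved by -1.75 in input, by 1.71 for the fractions in LPS animals and by 1.85 for the difference. Signs turned for Atf3 (-0.89), Trib3 (-0.73), Dnajb9 (-1.63) and Herpud1 (-1.76) in input, for Ddit3 (-0.10) and Dnajb9 (-0.07) between fractions in PBS, for Ddit3 (1.62) in LPS animals, and for Atf3 (0.73), Ddit3 (1.72), Chac1 (0.97) and Asns (1.93) in the difference. With those values of 17 libraries they turned for Asns in input (0.01), Ddit3 (-0.10) and Dnajb9 (-0.07) in PBS, Chac1 (-0.02), Asns (-0.04) and Dnajb9 (-0.01) in LPS animals and Trib3 in the difference (-0.05). With counts of all 18 libraries they turned for Ddit3 (-0.11) and Dnajb9 (-0.06) in PBS and Chac1 (-0.02), Asns (-0.03) and Dnajb9 (-0.00) in LPS animals.

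In female animals alone 2 members were called for LPS in the positive fraction, 1 in input and 0 for the difference, with 732 genes in all in input and 74 for the difference, and signs turned for Asns in input (0.07) and Trib3 (-0.05) and Dnajb9 (-0.11) in the difference. That fit held 2 animals in each PBS group. With all animals and sex as a covariate, the numbers of members called in input and for the difference did not change. Over all genes, 954 were then called higher and 280 lower for the difference, against 808 and 210. Without animals 506 and 507, 1 member was called in input and 0 for the difference (1083 and 323 over all genes), and Trib3 in input (-0.09) and Ddit3 between fractions in PBS (-0.03) turned. DESeq2 called 2 members for the difference. With the replicate block 2 members were called for the difference, and 1985 genes in all in limma-voom and 1915 in edgeR, against 1018 without it. Trib3 turned there (-0.05), Hspa5 gained a call, the stress targets had 5 calls for the difference against 1, and the block changed no other call of a member. Leaving out 1 library at a time gave 1 to 2 members called in input and 0 to 2 for the difference. The ranges that crossed 0 were those of Trib3 (-0.03 to 0.33 in the positive fraction, -0.26 to 0.38 in input, -0.27 to 0.38 in the difference), Atf3 (-0.06 to 0.39) and Asns (-0.05 to 0.04) in input, Ddit3 between fractions (-0.02 to 0.10 in PBS, -0.11 to 0.03 in LPS) and in the difference (-0.15 to 0.01), and Dnajb9 in the difference (-0.04 to 0.09). The cause was not tested for any of these, including where fewer animals were fitted.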
